A study of Mus musculus with 64 samples.

Results

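The 37 genes described here encode the enzymes, carriers and regulators of fatty acid oxidation, together with targets of the nuclear receptor PPARA. They were chosen by name, with earlier results of these data known. All were found among the 48440 genes of each mRNA table from the liver and the gonadal adipose tissue of mice. All 37 passed the filter on low signal in both tissues. The animals were of the 129S6/SvEvTac strain and every one of them, WT and humanized alike, drank water with 400 ppb of inorganic arsenic over 4 weeks, so no unexposed animal was in the comparison. WT animals expressed the mouse ortholog of AS3MT, the enzyme that methylates arsenic, and humanized animals expressed the human ortholog. Groups of WT females, humanized females, WT males and humanized males held 3 libraries each in liver (replicates 1 to 3), and 3 each in fat (replicates 4 to 6) except for WT males, of which replicates 4 and 5 were used. Nothing in the labels says that the libraries of a group came from separate animals, so p-values measure the spread between these libraries, which may be technical.

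Fatty acids enter mitochondria bound to carnitine and are shortened there by the dehydrogenases, hydratases and thiolases of beta-oxidation, while very long chains and dicarboxylic acids are shortened in peroxisomes. Fasting releases fatty acids that act in liver as ligands of PPARA. There PPARA raises transcription of most of these enzymes, of the Cyp4a omega-hydroxylases, of acyl-CoA thioesterases and of secreted factors such as Fgf21. In adipose tissue, PPARG and fasting act on several of the same genes, Pdk4 and Angptl4 among them.

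Values are normalized signal as the authors deposited it, which is scaled for library size but not for gene length, so levels of different genes were not compared. The normalized signal summed to 77307210 to 95381805 per liver library and to 83100312 to 90417259 per adipose library. The 37 members together held 1.14% to 1.98% of it in liver and 0.362% to 0.595% in fat. Mouse As3mt, which checks the genotype labels, had a signal of 2624 to 6111 in the WT livers and of 0 to 5.98 in the humanized livers, and of 1218 to 1737 against 0 to 5.33 in fat. Albumin (Alb), the defining hepatocyte marker, had a signal of 3970061 to 8590177 in liver, and the adipocyte hormone adiponectin (Adipoq) one of 116720.1 to 325519.6 in fat against 0 to 7.04 in liver. Of the liver libraries, 6 were labelled as ribodepleted and 6 as polyA-selected. Each WT group held 1 ribodepleted and 2 polyA-selected libraries, and each humanized group 2 ribodepleted and 1 polyA-selected. Preparation was thus unbalanced between the genotypes, and it was a covariate in the liver fit. Within a preparation, the genotype difference in either sex rests on a single library of 1 genotype. RNAs without a polyA tail did not separate the preparations, with a summed signal of 11074 to 27775 in the ribodepleted and 12619 to 17973 in the polyA-selected libraries.

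In fat, WT female replicate 4 stood apart. It was the highest of the 11 adipose libraries for 19 of the 37 members, and it held the thermogenic marker Ucp1 at 7873 against 3.05 to 1026 in the other 10 libraries, and the skeletal muscle marker Ckm at 4280.0 against 0.994 to 1563. Summed over 7 brown and beige adipocyte markers that are not members, its signal was 33561 against 756 to 5208 in the others. WT male replicate 5 held albumin at 129199.9 against 598 to 12598 elsewhere in fat. Humanized male replicate 4 had the highest macrophage marker sum, 242096 against 38496 to 121902, and the lowest adipocyte marker sum, 733493 against 959558 to 1482545. Where leaving out one of these libraries moved a named adipose value by over 1.5 times, the value without it is given beside it.

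The members divided between the tissues. For 20 of the 37, the lowest liver value lay above the highest adipose value, for 2 the reverse held, and for 15 the ranges overlapped. The tables of the tissues were normalized separately, so these ranges stand side by side with no test. The liver fatty acid binding protein Fabp1 ranged from 177729 to 397181 in liver and from 15.9 to 4383 in fat, and the ketone body dehydrogenase Bdh1 from 21144 to 45589.9 in liver and from 17 to 664 in fat. Pdk4, the kinase that shuts down pyruvate dehydrogenase when fat is burned, went the other way, with 249 to 4755 in liver and 5897 to 49465 in fat. The lipoprotein lipase inhibitor Angptl4 had 12757 to 26899 in liver and 30672 to 89820.2 in fat. Of the 11 members of mitochondrial beta-oxidation, 8 overlapped and Acaa2, Etfdh and Eci1 were higher in liver. Among those that overlapped was the long-chain acyl-CoA dehydrogenase Acadl at 15003 to 27529 in liver and 14993 to 27815 in fat. Some overlaps rested on 1 library. Acadvl reached 44999.6 in WT female replicate 4 and at most 25445 in the other fat libraries, against a lowest liver value of 41551. Cpt2 reached 14315 there and at most 10126 in the others, against a lowest liver value of 10364. In 1 WT female library Slc25a20 reached 10319, with at most 6431 in the others and a lowest liver value of 8400. Cyp4a31 reached 512 in 1 WT female library and at most 50.5 in the others, against a lowest liver value of 243.

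The members also differed in how much they varied between libraries of 1 group. In liver, the residual SD on the log2 scale was 0.087 for Etfdh, which passes electrons from the dehydrogenases to the respiratory chain, and 0.11 for the medium-chain acyl-CoA dehydrogenase Acadm, against a median of 0.31 over all genes tested. It was 1.29 for Cyp4a14, 1.18 for Cyp4a31 and 1.09 for Cyp4a10, the omega-hydroxylases, and 1.01 for the thioesterase Acot3.

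In liver, members were called between the sexes and none between the genotypes. Of the 37 members, 7 were called (limma adjusted p under 0.05) between the sexes over both genotypes, all lower in males, where 5.47% of the 15180 genes tested were called lower in males and 9.59% in either direction. They were the thioesterases Acot2, Acot3 and Acot4, the fuel-switch kinase Pdk4, the omega-hydroxylase Cyp4a14, the peroxisomal bifunctional enzyme Ehhadh and the mitochondrial dehydrogenase Acadm. Over all members, 29 lay below 0 and the median log2 difference, male minus female, was -0.21, beside a median of 0.012 over all genes tested, of which 51.7% lay above 0. At an unadjusted p under 0.05 there were 13 members, where 26.1% of all genes tested passed.

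Acyl-CoA thioesterases split acyl-CoA into free fatty acid and coenzyme A, and in the mouse Acot1 acts in the cytosol, Acot2 in mitochondria, and Acot3 and Acot4 in peroxisomes. The 4 genes lie next to each other on chromosome 12 in the order Acot2, Acot1, Acot4, Acot3, followed by Acot5 and Acot6, in the RefSeq annotation of GRCm38.p6. The normalized signal of Acot3 in liver was 21298, 12958 and 26671 in WT females, 18497, 37161 and 39341 in humanized females, 1361, 927 and 5193 in WT males and 7279, 1581 and 2667 in humanized males. All 6 male values lay below all 6 female values, and the fitted level was 9.98-fold lower in males (log2 difference -3.32 ± 0.48 (SE), limma adjusted p = 0.00235). Acot4 had 8292, 6312 and 8628 in WT females, 6955, 10923 and 12001 in humanized females, 2868, 2363 and 4121 in WT males and 5433, 2818 and 3469 in humanized males. Again the sexes did not overlap, and the level was 2.55-fold lower in males (log2 difference -1.35 ± 0.21 (SE), limma adjusted p = 0.00375). Acot2 had 1891, 1455 and 2593 in WT females, 1390.2, 4308 and 4831 in humanized females, 1275, 805 and 1176 in WT males and 1323, 627 and 1032 in humanized males, with no male above any female, and was 2.42-fold lower in males (log2 difference -1.27 ± 0.32 (SE), limma adjusted p = 0.0348). Acot1 had 11141, 4008 and 9794 in WT females, 6223, 28483 and 30309.7 in humanized females, 8957, 12216 and 9310.3 in WT males and 13283, 4788 and 3636 in humanized males. Its values overlapped between the sexes and it was not called (log2 difference -0.55 ± 0.46 (SE), limma adjusted p = 0.502). Acot1 and Acot2 are near-identical copies, so how reads were divided between them is uncertain. Among the members, 4 had sexes that did not overlap with males lower, these 3 thioesterases and Acadm, where 2.73% of all genes tested had.

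Promoters of the called thioesterases are shown because 3 genes of 1 cluster were called in the same direction. Beside them are Acadm, also called lower in males, and Fabp1, which held the closest match of the members to the element searched. Another Acot3 promoter, with the same match, is not shown. Nor is that of Acot1, the uncalled neighbour, whose closest match had 4 mismatches. Those of Ehhadh and Pdk4, also called lower in males, are not shown either, and their closest matches had 4 mismatches each. RefSeq promoter sequences (250 bases before to 50 after the start, GRCm38.p6) were matched by symbol for 29 of the 37 members, with 33 promoters. None was matched for Cpt1b, Acaa2, Decr1, Cyp4a10, Cyp4a14, Cyp4a31, Angptl4 and Vnn1. The element searched on both strands was the direct repeat that PPARA binds with RXR, AGGTCA followed by any 1 base and AGGTCA again, and capitals mark the closest match in each promoter, the first one where several tied.
Acot2, chr12:83987611-83987910, plus strand: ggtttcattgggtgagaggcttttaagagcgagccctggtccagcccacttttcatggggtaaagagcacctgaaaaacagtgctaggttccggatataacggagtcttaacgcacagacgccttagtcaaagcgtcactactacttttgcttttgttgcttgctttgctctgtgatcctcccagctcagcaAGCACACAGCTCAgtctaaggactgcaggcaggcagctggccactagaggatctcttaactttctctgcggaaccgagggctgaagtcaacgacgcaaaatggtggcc
Acot4, chr12:84038129-84038428, plus strand: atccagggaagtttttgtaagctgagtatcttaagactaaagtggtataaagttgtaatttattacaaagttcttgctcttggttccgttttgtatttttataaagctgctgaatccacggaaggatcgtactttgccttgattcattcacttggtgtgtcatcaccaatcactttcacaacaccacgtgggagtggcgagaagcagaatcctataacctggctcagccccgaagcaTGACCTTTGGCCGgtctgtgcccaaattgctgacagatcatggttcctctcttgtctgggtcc
Acot3, chr12:84051894-84052193, plus strand: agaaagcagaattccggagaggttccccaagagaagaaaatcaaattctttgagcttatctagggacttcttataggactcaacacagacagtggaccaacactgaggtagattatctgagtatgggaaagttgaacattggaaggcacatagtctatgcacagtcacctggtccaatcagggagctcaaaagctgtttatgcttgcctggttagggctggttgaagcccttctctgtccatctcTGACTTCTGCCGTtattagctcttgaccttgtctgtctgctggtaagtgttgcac
Acadm, chr3:153944594-153944893, minus strand: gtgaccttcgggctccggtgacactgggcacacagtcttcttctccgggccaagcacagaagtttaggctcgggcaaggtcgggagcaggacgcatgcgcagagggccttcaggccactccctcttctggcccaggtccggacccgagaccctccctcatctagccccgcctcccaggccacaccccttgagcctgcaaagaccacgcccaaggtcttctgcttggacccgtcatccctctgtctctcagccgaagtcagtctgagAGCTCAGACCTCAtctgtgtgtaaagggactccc
Fabp1, chr6:71199629-71199928, plus strand: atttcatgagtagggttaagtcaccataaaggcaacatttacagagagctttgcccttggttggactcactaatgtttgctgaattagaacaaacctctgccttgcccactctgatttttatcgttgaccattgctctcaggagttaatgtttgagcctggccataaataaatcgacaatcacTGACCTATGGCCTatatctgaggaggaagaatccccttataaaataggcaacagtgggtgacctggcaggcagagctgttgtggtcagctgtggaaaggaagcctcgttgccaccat
No member promoter held the element exactly. With 1 mismatch allowed it was in the Fabp1 promoter, beginning 67 bases before the start on the opposite strand, and in 0.644% of the 27025 genes with a promoter. With 2 mismatches it was in 4 of the 29 members, Acot4 (13 bases before the start, opposite strand), Creb3l3, Fabp1 and Slc25a20, and in 4.4% of all genes. The capitals in Acot2, Acot3 and Acadm mark matches with 3 mismatches, which 27.3% of all genes held. A match describes letters in this window and is not a measured binding site.

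**Figure D1:**
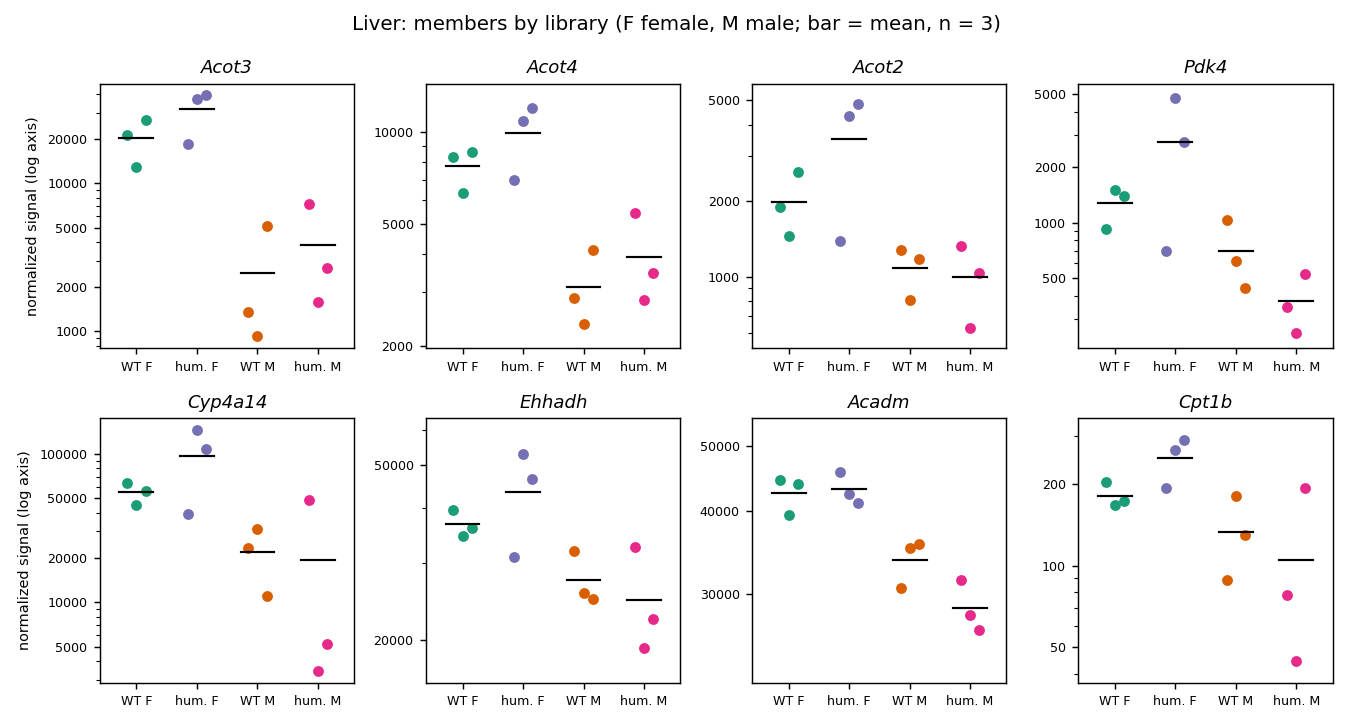
Normalized signal in liver (log axis) of the 7 members called between the sexes and of Cpt1b, in each library (points, n = 3 per group) with the group mean (bar). The 6 male points of Acot3, Acot4, Acot2 and Acadm lie below all 6 female points, and those of the other 4 genes overlap with them.

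Acadm, the dehydrogenase that opens each round on medium-chain fatty acids, had 44492, 39369 and 43815 in WT females, 45774, 42374 and 41004 in humanized females, 30572, 35100.1 and 35609 in WT males and 31433, 27860.3 and 26518 in humanized males. The sexes did not overlap, and the level was 1.38-fold lower in males (log2 difference -0.46 ± 0.092 (SE), limma adjusted p = 0.0124). Of the other 10 members of mitochondrial beta-oxidation none was called. Hadh at -0.42, Acadl at -0.37 and Hadhb at -0.21 had the lowest log2 differences, with adjusted p-values of 0.101, 0.1001 and 0.434, and the thiolase Acaa2 the highest at 0.11. In the carnitine shuttle, Cpt1a, the entry enzyme in liver, had a log2 difference of -0.15 (95% interval -0.54 to 0.24). The muscle-type form Cpt1b had values of 202, 167 and 172 in WT females, 193, 266 and 289 in humanized females, 88.5, 180.3 and 129 in WT males and 77.7, 44.5 and 192 in humanized males, which overlapped between the sexes (log2 difference -0.99 ± 0.28 (SE), limma adjusted p = 0.0546).

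In peroxisomes, Ehhadh, which hydrates and oxidizes the chain, had 39436, 34498 and 36064 in WT females, 30832, 53059 and 46437 in humanized females, 31880.3, 25650.3 and 24786 in WT males and 32558, 19252 and 22368 in humanized males. WT male replicate 1 and humanized male replicate 1 both lay above humanized female replicate 1, so the sexes overlapped, and the level was 1.54-fold lower in males (log2 difference -0.62 ± 0.17 (SE), limma adjusted p = 0.0454). The other 5 peroxisomal members were not called and ranged from -0.41 for the reductase Decr2 to 0.16 for the thiolase Acaa1a. Pdk4 had 922, 1505 and 1395 in WT females, 702, 4755 and 2744 in humanized females, 1036, 614 and 438 in WT males and 345, 249 and 522 in humanized males. Humanized female replicates 2 and 3 were its highest libraries, WT male replicate 1 lay above 2 female libraries, and it was 3.35-fold lower in males (log2 difference -1.74 ± 0.40 (SE), limma adjusted p = 0.0238). Bdh1, which interconverts the ketone bodies, had a log2 difference of -0.36 with an adjusted p of 0.102.

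Among the omega-hydroxylases, which oxidize the far end of the fatty acid, Cyp4a14 had 63673, 44865 and 56551 in WT females, 39587, 144246 and 107762 in humanized females, 23124, 31100.3 and 10931 in WT males and 48888, 3435 and 5215 in humanized males. It had the widest range of the 3 in liver, from 3435 to 144246, and it was 4.93-fold lower in males (log2 difference -2.30 ± 0.61 (SE), limma adjusted p = 0.0421), although humanized male replicate 1 lay above WT female replicate 2 and humanized female replicate 1. Its neighbours on chromosome 4, Cyp4a10 (log2 difference -0.69 ± 0.52 (SE), limma adjusted p = 0.450) and Cyp4a31 (log2 difference 0.17 ± 0.56 (SE), limma adjusted p = 0.887), were not called, and the division of reads between Cyp4a10, Cyp4a31 and Cyp4a32, which are close copies, is uncertain. Of the regulators, Ppara had 6201, 9798 and 14226 in WT females, 11261, 7313 and 6831 in humanized females, 10564, 7980.5 and 10632 in WT males and 10364, 5549 and 7072 in humanized males, with overlap between all groups (log2 difference -0.069, 95% interval -0.58 to 0.44). Its coactivator Ppargc1a lay at -0.89 with an adjusted p of 0.123, and the transcription factor Creb3l3 at 0.044. The pantetheinase Vnn1 lay at -1.04 with an adjusted p of 0.146, the hormone Fgf21 at -0.33, Angptl4 at -0.21 and Fabp1 at 0.30, none called.

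**Figure D2:**
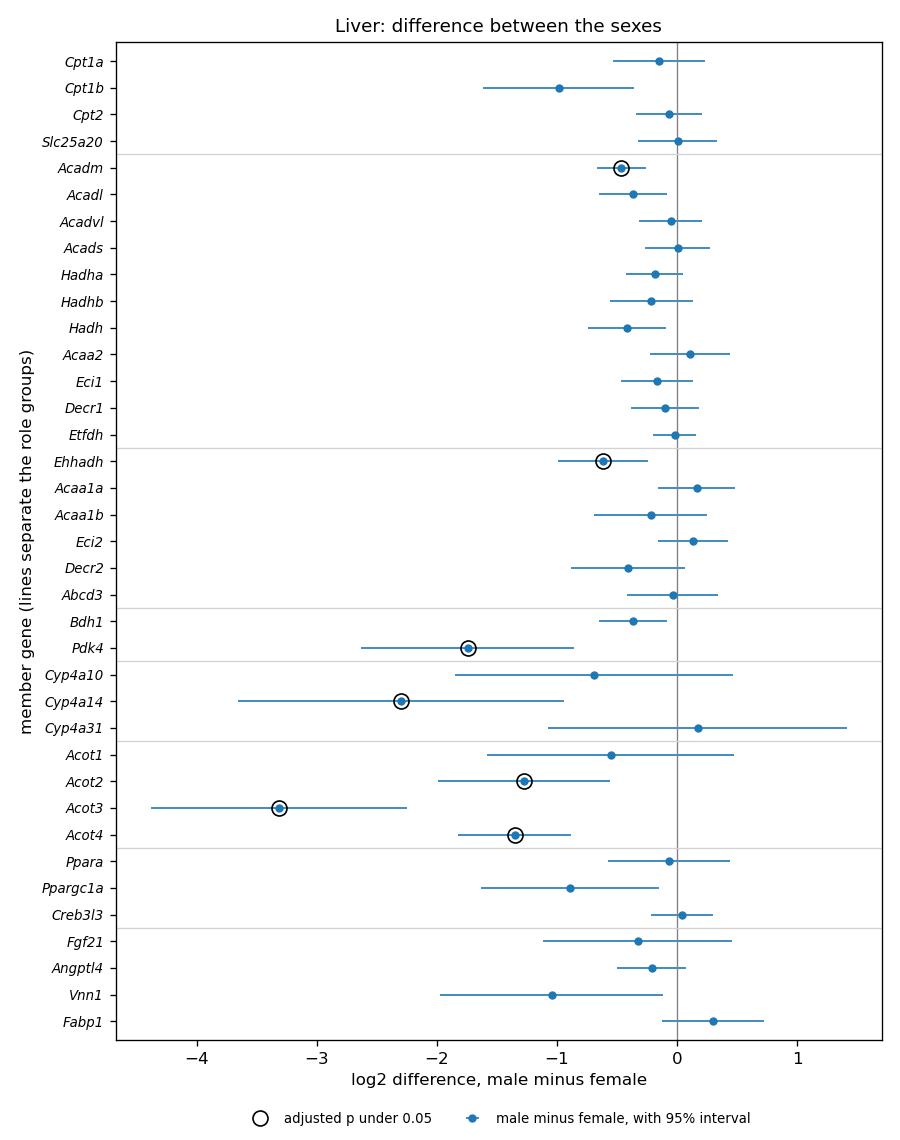
Log2 difference between male and female liver of all 37 members, with 95% intervals from limma (points and lines, 12 libraries), in order of role. The 7 circled members were called and all lie below 0, with Acot3 lowest at -3.32.

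Within each library preparation the called members kept their direction. Among polyA-selected livers alone the log2 difference was -3.44 for Acot3, -1.45 for Acot4, -1.53 for Acot2, -2.33 for Pdk4, -3.12 for Cyp4a14, -0.87 for Ehhadh and -0.45 for Acadm. Among ribodepleted livers alone it was, in the same order, -3.48, -1.38, -1.04, -1.04, -1.90, -0.45 and -0.55. Acot3, Acot4 and Acadm stayed called in all 12 fits that left out 1 library, with log2 differences of -3.70 to -3.04, -1.50 to -1.24 and -0.50 to -0.41. Acot2 was not called in 8 of those fits, Pdk4 in 7, Ehhadh in 9 and Cyp4a14 in 10, all keeping their direction. With 1 library left out, 3 members were called when it was replicate 1 or 3 of the WT females, replicate 3 of the humanized females or replicate 2 of either male group, 4 when it was replicate 2 of either female group, and 9 when it was replicate 1 of the humanized males. The sum of 10 hepatocyte markers was 9416842 to 14342599 in females and 8053386 to 12225500.2 in males, with none at 0, and 1 of the 10 was called, higher in males. Marker lists of other cell types differed in both directions. The sum of 10 macrophage markers was 16508 to 30760 in females and 11498 to 20899 in males, with 5 of the 10 called lower, and that of 10 endothelial markers was 11735 to 18556 in females and 9508 to 12256 in males, with 6 of the 10 called lower and no marker of either list at 0. Of 9 T cell markers tested 3 were called lower, with sums that overlapped between the sexes, and the sums of B cell and neutrophil markers overlapped too. The sum of 10 mesothelial markers, the keratins Krt8, Krt18 and Krt19 among them, was higher in males without overlap, at 29677 to 47477 against 21870 to 26662. Up to 5 of these 10 were at 0 in a WT female library and up to 1 in a WT male library. Which of the markers carried this sum was not tested. In bulk tissue, fewer cells of a type and less RNA per cell cannot be told apart, and the part of cell composition in these differences was not tested.

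Between the genotypes, no liver member was called in males, in females, over both sexes or in the interaction of genotype with sex by limma. The percentages of all genes called in these comparisons were 0.0329%, 0.0198%, 0.0329% and 0.00659%. At an unadjusted p under 0.05 there were 3 members in males, 2 in females, 0 over both sexes and 5 in the interaction, where 7.13%, 5.66%, 5.07% and 8.18% of all genes tested passed. In males 25 of 37 members were lower in humanized livers by point estimate, with a median log2 difference (humanized minus WT) of -0.12, and in females 28 were higher by point estimate, with a median of 0.16. The medians over all genes tested were -0.0072 and -0.0087, with 49% and 49.1% of them above 0. Over both sexes 23 members lay above 0, with a median of 0.063, where 49.2% of all genes did, and the 14 below 0 became 22 without WT male replicate 1. For 21 members the point estimates were above 0 in females and below 0 in males, for 5 the reverse held, and the interaction was below 0 for 27 with a median of -0.25, where 50.7% of all genes lay above 0. The median of the interaction was -0.0086 among ribodepleted livers alone and -0.68 among polyA-selected ones, and lay between -0.45 (without humanized male replicate 1) and -0.14 (without humanized male replicate 3) with each library left out. In the same fits the median lay between -0.25 and -0.043 in males, lowest and highest without the same 2 libraries, and between 0.10 and 0.27 in females, lowest without humanized female replicate 2 and highest without humanized female replicate 1. Over both sexes it lay between -0.030 and 0.10, below 0 without replicate 2 of either female group or replicate 1 of either male group. With libraries scaled to equal total signal, 19 members were below 0 in males, with a median of -0.014. The count in females rested on single libraries, since the 9 members below 0 became 16 without WT female replicate 2, 15 without humanized female replicate 3 and 5 without WT female replicate 3. Among ribodepleted livers alone it was 16 and among polyA-selected ones 7. In males, 20 members lay below 0 among ribodepleted livers alone, with a median of -0.026. Among polyA-selected ones 29 did, with a median of -0.28.

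Angptl4, which inhibits lipoprotein lipase and is secreted, had the smallest p in males and in the interaction. Its signal was 18434, 16706 and 17034 in WT females and 20465, 21454 and 26899 in humanized females, and 26012, 23759 and 14744 in WT males and 15925, 13912 and 12756 in humanized males. The female groups did not overlap, with humanized higher, and in males WT replicates 1 and 2 lay above all humanized libraries while WT replicate 3 lay among them. The difference was -0.64 ± 0.19 (SE) on the log2 scale in males (limma adjusted p = 0.572) and 0.31 ± 0.19 in females (adjusted p = 0.786). The interaction was -0.95 ± 0.26 (adjusted p = 0.585), and its adjusted p ranged from 0.133 to 0.986 with each library left out.

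Creb3l3, a membrane-bound transcription factor of hepatocytes, had 53184, 48357 and 39397 in WT males and 34686, 34196 and 35268 in humanized males. The 3 humanized males lay below the 3 WT males (log2 difference -0.43 ± 0.17 (SE), limma adjusted p = 0.677), and without WT male replicate 1 the difference was -0.28. In females it had 35717, 30508 and 43188 in WT females and 39446, 45240.4 and 42094 in humanized females, which overlapped, and its interaction was -0.65 with an adjusted p of 0.588. Bdh1 was higher in humanized males by point estimate, with 23123, 21144 and 32959.5 in WT males and 39527, 36158 and 30895 in humanized males, which overlapped at WT replicate 3 (log2 difference 0.43 ± 0.19 (SE), limma adjusted p = 0.690). That difference was 0.23 to 0.63 with each library left out, lowest without WT male replicate 1 and highest without WT male replicate 3, and 0.71 in ribodepleted and 0.23 in polyA-selected livers.

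In females, the smallest p-values belonged to the peroxisomal thiolases Acaa1a and Acaa1b, which complete each peroxisomal round and are close copies of each other, so that the split of their reads is uncertain. Acaa1a had 25998, 20728 and 24469.9 in WT females and 27854, 39133 and 45782 in humanized females, with all 3 humanized above all 3 WT libraries (log2 difference 0.62 ± 0.21 (SE), limma adjusted p = 0.786). Acaa1b had 123953, 94524 and 84908 in WT females and 109687, 203461 and 198688 in humanized females, where humanized replicates 2 and 3 were high and replicate 1 lay within the WT range (log2 difference 0.78 ± 0.31 (SE), limma adjusted p = 0.786), and the difference was 0.25 in ribodepleted and 1.18 in polyA-selected livers. Etfdh had 27255, 24939 and 25594 in WT females and 23858, 20967 and 24084 in humanized females, with humanized lower and no overlap (log2 difference -0.23 ± 0.12 (SE), limma adjusted p = 0.786). In males Etfdh had 25903, 23101 and 22772 in WT males and 28328, 22859 and 21999.6 in humanized males, which overlapped. Acaa1a in males had 34475, 41991 and 28992 in WT males and 32066, 33021 and 29116 in humanized males and Acaa1b 78428, 149047 and 121253 in WT males and 129710.0, 92857 and 103350.0 in humanized males, and the interaction of Acaa1a was -0.79 with an adjusted p of 0.589. Among all members, the groups did not overlap for Acaa1a, Fgf21 and Angptl4 with humanized females higher and for Etfdh with them lower, and for Fabp1 with humanized males higher and Cpt2, Cyp4a31 and Creb3l3 with them lower. Of all genes tested, 7.35% had female groups without overlap with humanized higher and 6.71% with humanized lower, and in males 5.34% and 4.67%.

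Over both sexes, the members with the smallest p-values were Acaa1b (log2 difference 0.39 ± 0.23 (SE), limma adjusted p = 0.880), Etfdh (log2 difference -0.13 ± 0.086 (SE), limma adjusted p = 0.880) and Fabp1 (log2 difference 0.31 ± 0.20 (SE), limma adjusted p = 0.880). The difference of Acaa1b was 0.18 to 0.60 with each library left out, lowest without WT male replicate 1 and highest without WT female replicate 1. Fabp1, which carries fatty acids through the hepatocyte, had 276136, 181153 and 234725 in WT females, 197736, 236446 and 329953 in humanized females, 237023, 177729 and 311947 in WT males and 381498, 397181 and 314953 in humanized males. All 3 humanized males lay above all 3 WT males, while the females overlapped. The 3 Cyp4a members were lower in humanized males by point estimate, -1.37 for Cyp4a10, -1.12 for Cyp4a14 and -1.55 for Cyp4a31, with adjusted p-values of 0.723, 0.806 and 0.717. Cyp4a10 in males had 34224, 70264 and 41791 in WT and 67262, 7373 and 10638 in humanized livers, so humanized replicate 1 stood with the WT livers and the other two lay below all of them. Ppara itself lay at -0.35 in males (95% interval -1.09 to 0.39) and -0.18 in females (-0.92 to 0.57). In females it lay at 0.50 among ribodepleted livers alone and at -0.69 among polyA-selected ones alone. Humanized female replicate 3 was the highest of the 12 livers for 15 members and humanized female replicate 2 for 7, while WT female replicate 2 and humanized male replicate 3 were each the lowest for 9 and humanized male replicate 2 for 8.

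**Figure D3:**
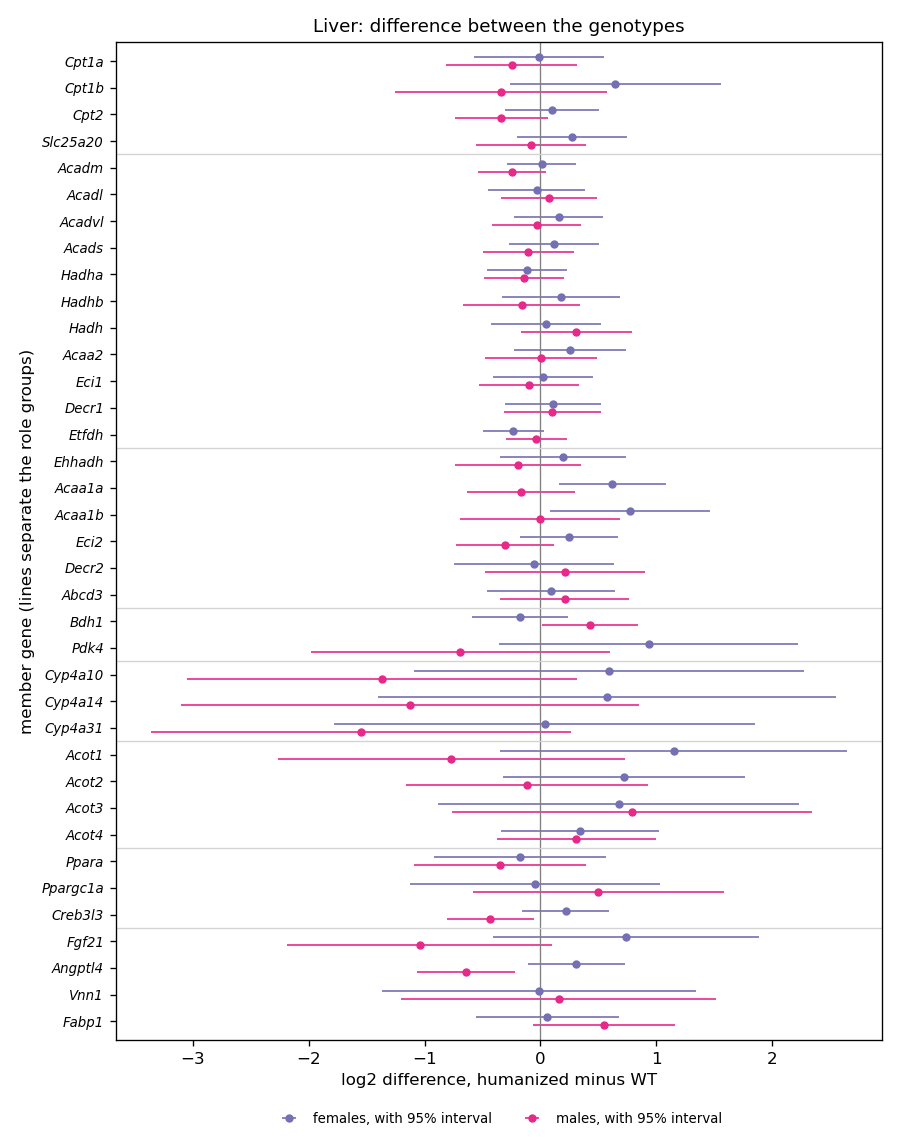
Log2 difference between humanized and WT liver of all 37 members in females (violet) and males (pink), with 95% intervals from limma (12 libraries), in order of role. No member was called in either sex, and 28 lie above 0 in females and 25 below 0 in males.

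In gonadal fat no member was called in any of the 5 comparisons by limma, with the percentages of all 17394 genes called at 0.0172% for genotype in males, 0.0172% in females, 0.023% over both sexes, 0% for the interaction and 0.42% for sex. At an unadjusted p under 0.05 there were 2, 6, 4, 2 and 1 members in the same order, where 8.41%, 5.25%, 7.11%, 6.8% and 12.5% of all genes passed. Over both sexes 35 of 37 members were lower in humanized fat by point estimate, with a median log2 difference of -0.27 beside -0.0036 over all genes tested. The count was 29 in males and 31 in females, and the share of all genes above 0 was 49.3% over both sexes, 51.1% in males and 49.8% in females. The interaction was below 0 for 18 members, and for 12 to 21 with each library left out, with 51.2% of all genes above 0. With each library left out in turn the median over both sexes lay between -0.35 and -0.17 and the count below 0 between 30 and 36.

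Pdk4 had the smallest p in fat. Its signal was 25131, 11808 and 8888 in WT females, 10016, 6221 and 13448 in humanized females, 37124 and 49465 in WT males and 9482, 7623 and 5897 in humanized males. Both WT males lay above every other library, and the 3 humanized males below both, 5.69-fold lower by the fit (log2 difference -2.51 ± 0.44 (SE), limma adjusted p = 0.174). Its adjusted p ranged from 0.113 to 0.475 and its log2 difference from -2.72 to -2.30 with each library left out. In females the groups overlapped (log2 difference -0.55 ± 0.39 (SE), limma adjusted p = 0.936), and the difference was -0.12 without WT female replicate 4. The interaction was -1.96 ± 0.59 (adjusted p = 0.637). Over both sexes the difference was -1.53 with an adjusted p of 0.346, and between the sexes 0.65 with 0.406. Without WT male replicate 5, which held the albumin, the difference in males was -2.30 with an adjusted p of 0.374.

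Vnn1, the pantetheinase that recycles pantothenate for coenzyme A, followed the same order in males. It had 341, 689 and 883 in WT females, 292.1, 565.2 and 1221.1 in humanized females, 1858 and 2199.7 in WT males and 278, 456 and 496 in humanized males, and the 2 WT males again lay above all other libraries (log2 difference -2.34 ± 0.57 (SE), limma adjusted p = 0.310). Its interaction was -2.33 with an adjusted p of 0.661, and over both sexes the difference was -1.18. Without WT male replicate 5 the difference in males was -2.22. Angptl4, also secreted by adipocytes, had 52571, 38278 and 55158 in WT females, 45095, 30672 and 50307 in humanized females, 89820.2 and 82032 in WT males and 87824, 44921 and 49929 in humanized males. The WT males and humanized male replicate 4 were its highest libraries. Males exceeded females by 0.67 ± 0.21 (SE) on the log2 scale, with overlap and an adjusted p of 0.236, and by 0.52 without humanized male replicate 4. Acaa1b had 11678 and 12296 in WT males and 8437, 8149.6 and 7915 in humanized males, without overlap (log2 difference -0.55 ± 0.29 (SE), limma adjusted p = 0.654). In males, 6 members had humanized values below both WT values, Slc25a20, Hadhb, Acaa1b, Eci2, Pdk4 and Vnn1, where 12.1% of all genes tested had. The skeletal muscle marker sum was 34238 in WT male replicate 4 and 3490.4 in replicate 5, against 8606, 20487 and 3905 in the humanized males. The hepatocyte marker sum in the same order was 169696 and 471911 against 110828, 226808 and 194100.0, and the part of either in these differences was not tested.

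**Figure D4:**
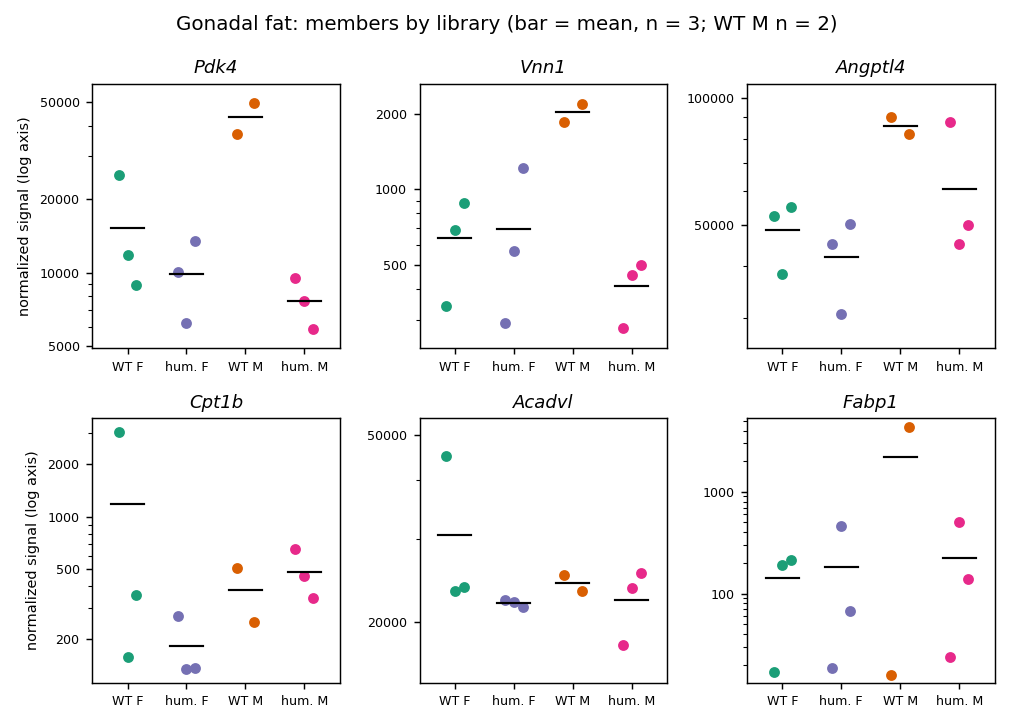
Normalized signal in gonadal fat (log axis) of 6 members in each library (points, n = 3 per group and n = 2 for WT males) with the group mean (bar). The WT males are the highest libraries for Pdk4 and Vnn1, WT female replicate 4 is the highest for Cpt1b and Acadvl, and WT male replicate 5 for Fabp1.

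In females, all 11 members of mitochondrial beta-oxidation were lower in humanized fat by point estimate, with a median log2 difference of -0.32 and a range of -0.54 to -0.23. Acadm had 53163, 32441 and 37474 in WT females and 31192, 24649 and 27173 in humanized females (log2 difference -0.54 ± 0.19 (SE), limma adjusted p = 0.933). Ehhadh had 4207, 3253 and 4131 in WT females and 2156, 3205 and 2487 in humanized females (log2 difference -0.57 ± 0.20 (SE), limma adjusted p = 0.933), and over both sexes, with 5438 and 3348 in WT males and 3162, 3495 and 3185 in humanized males, its difference was -0.48 with an adjusted p of 0.555, and -0.65 to -0.30 with each library left out, nearest to 0 without WT male replicate 4. Etfdh had 15872, 10488 and 9870.1 in WT females and 9748, 8469 and 8994 in humanized females (log2 difference -0.38 ± 0.16 (SE), limma adjusted p = 0.933). For these 3, and for Cpt2, Acadvl, Hadha and Decr1, the female groups did not overlap with humanized lower, 7 members in all, where 5.51% of all genes tested had. Cpt2, the inner carnitine transferase, had 14315, 10126 and 9572 in WT females, 8833, 9505 and 7539 in humanized females, 9169.8 and 7047 in WT males and 7249, 9610.0 and 10062 in humanized males, with an interaction of 0.52 (adjusted p = 0.778) that was 0.34 without WT female replicate 4 and 0.33 without WT male replicate 5. WT female replicate 4 was the highest of the 11 libraries for 10 of the 11 mitochondrial members, as for the very-long-chain dehydrogenase Acadvl with 44999.6, 23332 and 23785 in WT females and 22266, 22092 and 21556 in humanized females, and for Cpt1b with 3025, 157 and 359 in WT females and 273, 136 and 137 in humanized females. Without it, the median of the 11 mitochondrial members in females moved to -0.16 with 10 below 0, Acadvl from -0.41 to -0.10, Cpt1b from -1.69 to -0.47, Acadm from -0.54 to -0.34, Etfdh from -0.38 to -0.17 and Ehhadh from -0.57 to -0.51. Over both sexes the median of the 11 moved from -0.24 to -0.12. Not every role moved toward 0 in females. The median of the omega-hydroxylases, which were low in fat, moved from -0.64 to -2.30. That of the secreted and surface targets with Fabp1 moved from -0.14 to -0.29. The medians of the other roles moved nearer to 0, and that of the regulators crossed it, from -0.31 to 0.14.

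**Figure D5:**
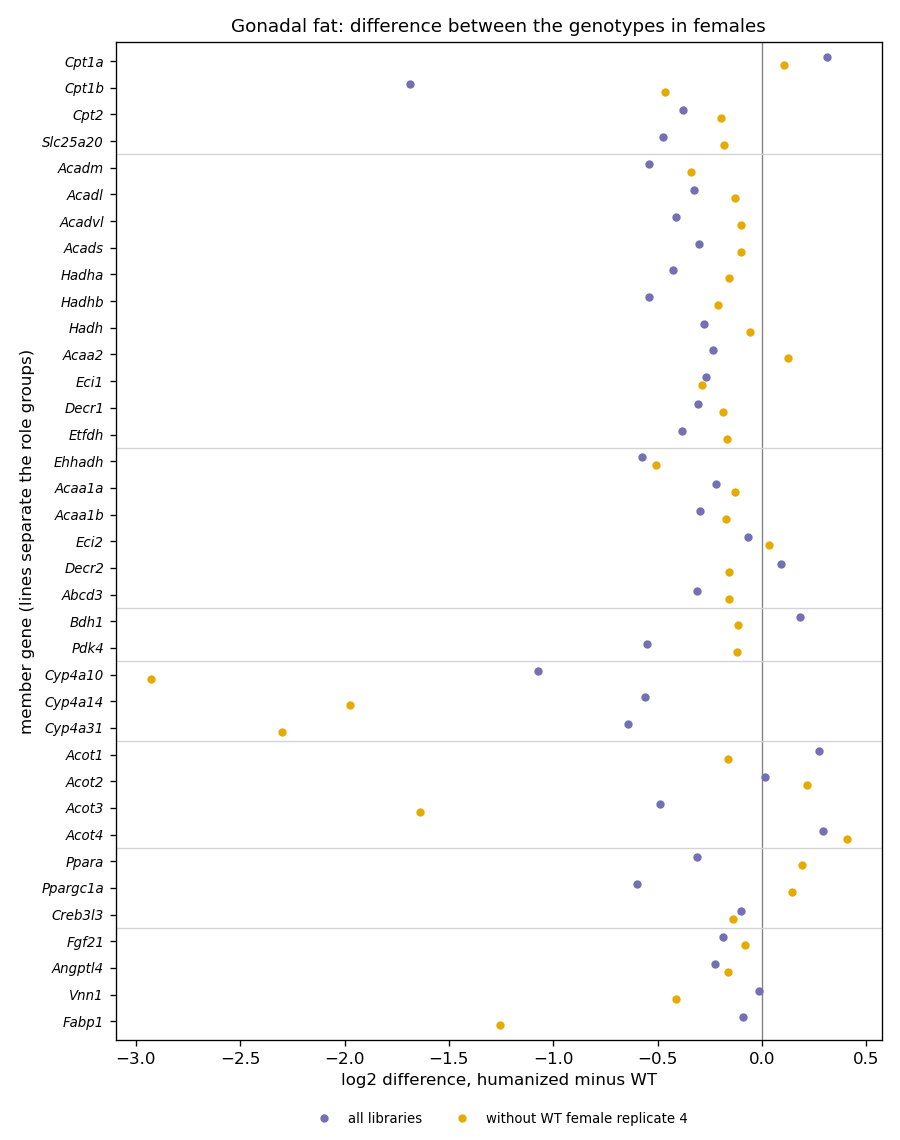
Log2 difference between humanized and WT female gonadal fat of all 37 members with all 11 libraries (violet) and without WT female replicate 4 (yellow), fitted values without intervals, in order of role. The mitochondrial beta-oxidation members lie between -0.54 and -0.23 with all libraries, and 10 of the 11 lie nearer to 0 without that library.

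Between the sexes in fat, members below and above 0 were nearly even, at 19 and 18, where 50.8% of all genes lay above 0. With each library left out, 13 to 24 members lay below 0. Without WT female replicate 4, Acaa2, the last mitochondrial thiolase of the spiral, was called higher in males (log2 difference 0.53 ± 0.087 (SE), limma adjusted p = 0.0456), and with it the difference was 0.35 with an adjusted p of 0.493. Acaa2 had 24198, 11536 and 11282 in WT females, 14001, 11214 and 12331 in humanized females, 17728 and 15218 in WT males and 17337, 17682 and 19414 in humanized males, so that WT female replicate 4 was the highest library and the other 5 females lay below all 5 males. Cpt1a had 6061, 8635 and 9961 in WT females, 10888, 9302 and 9850.3 in humanized females, 9919 and 12831 in WT males and 17709.5, 9964 and 10627 in humanized males (log2 difference 0.40 ± 0.18 (SE), limma adjusted p = 0.414). Its highest library was humanized male replicate 4, the one with the highest macrophage marker sum, and without it the difference was 0.26.

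Members that are characteristic of hepatocytes were listed at low and uneven levels in fat. Fabp1 had 16.9, 189.9 and 215 in WT females, 18.4, 462 and 67.4 in humanized females, 15.9 and 4383 in WT males and 23.7, 510.0 and 138 in humanized males, and Cyp4a10 had 4.63, 77.3 and 916 in WT females, 4.36, 136 and 58.3 in humanized females, 3.96 and 1734 in WT males and 2.85, 64.4 and 1.01 in humanized males. WT male replicate 5, the library with the most albumin, was the highest for both. Cyp4a14 had 6.77, 16.3 and 1257 in WT females, 2.13, 279 and 59 in humanized females, 4.01 and 662 in WT males and 5.59, 41.2 and 1.97 in humanized males, with WT female replicate 6 highest. Their residual SDs in fat were 2.94, 3.56 and 3.49 on the log2 scale, against a median of 0.31 over all genes tested. Ppara had 1041, 268 and 499 in WT females, 425, 367 and 469.9 in humanized females, 676 and 635 in WT males and 395, 979.7 and 1014 in humanized males in fat, with overlap of the genotypes in both sexes.

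Fatty acid oxidation genes and PPARA targets outside the 37 were also chosen with earlier results known, so their share of calls is no independent test. Some were called between the sexes in liver, in both directions, and none between the genotypes. Of 81 such genes 78 were tested in liver, and 8 were called higher and 7 lower in males, with a median log2 difference of -0.058. None was called in the genotype comparisons or in fat, where 80 were tested. By list, 6 of 35 other fatty acid oxidation genes, 0 of 7 ketogenesis and ketolysis genes and 9 of 36 other PPARA targets and regulators were called between the sexes in liver, beside 9.59% of all genes in either direction, 4.12% higher and 5.47% lower. At an unadjusted p under 0.05 the ketone genes numbered 1. The omega-hydroxylase Cyp4a12a averaged 49225 ± 13182 (SD, n = 3) in WT males and 26671 ± 18878 in humanized males, against 16.7 ± 20.2 and 9.86 ± 12.3 in WT and humanized females (log2 difference 11.75 ± 0.72 (SE), limma adjusted p = 5.85e-06). Its copy Cyp4a12b, from which its reads may not be separable, was also higher in males (log2 difference 9.94 ± 0.61 (SE), limma adjusted p = 5.85e-06), and so was the peroxisomal coenzyme A diphosphatase Nudt7 (log2 difference 2.71 ± 0.24 (SE), limma adjusted p = 6.91e-05). Lower in males were the isomerase Eci3, at 362 ± 175 (SD, n = 3) in WT females and 0 in all 3 WT males, the peroxisomal transporter Abcd2 (log2 difference -3.52 ± 0.49 (SE), limma adjusted p = 0.00196) and the mitochondrial carrier Ucp2 (log2 difference -0.81 ± 0.11 (SE), limma adjusted p = 0.00122). Cyp4a12a and Cyp4a12b lie in the same run of genes on chromosome 4 as Cyp4a14, which was lower in males.

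In the genotype comparisons the genes of these lists with the smallest p-values were Abcd2 (log2 difference 3.47 ± 0.72 (SE), limma adjusted p = 0.381) and Cyp4a12b (log2 difference -4.03 ± 0.89 (SE), limma adjusted p = 0.417) in male liver, and Cyp4a32 (log2 difference 1.84 ± 0.58 (SE), limma adjusted p = 0.786) and G0s2, an inhibitor of triglyceride lipase (log2 difference 1.17 ± 0.47 (SE), limma adjusted p = 0.786), in female liver. Abcd2 averaged 288 ± 307 (SD, n = 3) in WT and 2412 ± 1960.4 in humanized males, against 7245 ± 1934 and 7028 ± 936 in females. Over both sexes they were Abcd2 (log2 difference 1.79 ± 0.52 (SE), limma adjusted p = 0.880) and Cyp4a12b (log2 difference -3.10 ± 0.65 (SE), limma adjusted p = 0.664), and in the interaction Abcd2 (log2 difference 3.38 ± 0.99 (SE), limma adjusted p = 0.585) and the lipid droplet protein Fitm2 (log2 difference -0.96 ± 0.30 (SE), limma adjusted p = 0.585). In fat, Lpin1, a phosphatidate phosphatase, averaged 55167 ± 9689 (SD, n = 2) in WT males and 30768 ± 6503 (n = 3) in humanized males (log2 difference -0.85 ± 0.20 (SE), limma adjusted p = 0.277), and the corepressor Ncor1 had a log2 difference of -0.51 ± 0.13 (SE), limma adjusted p = 0.334. The peroxisomal bifunctional enzyme Hsd17b4 averaged 40853 ± 2882 in WT and 30071 ± 2326 in humanized females (SD, n = 3, log2 difference -0.44 ± 0.11 (SE), limma adjusted p = 0.933), and the coactivator Ppargc1b had a log2 difference of -1.10 ± 0.25 (SE), limma adjusted p = 0.907. Over both sexes Hsd17b4 had a log2 difference of -0.40 ± 0.079 (SE), limma adjusted p = 0.400 and Ncor1 a log2 difference of -0.36 ± 0.09 (SE), limma adjusted p = 0.454, and in the interaction Ppargc1b had a log2 difference of 1.80 ± 0.37 (SE), limma adjusted p = 0.485 and Lpin1 a log2 difference of -1.13 ± 0.26 (SE), limma adjusted p = 0.597. Between the sexes in fat, the carnitine octanoyltransferase Crot had a log2 difference of -0.26 ± 0.062 (SE), limma adjusted p = 0.125.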

How the data were processed

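Gene-level mRNA signal of liver (12 libraries) and gonadal adipose tissue (11 libraries) was analysed, and 41 small RNA samples were not used here. The authors deposited normalized signal per gene. The submitters' processing notes list STAR, Salmon, DESeq2, limma and the mm9 build, without versions or roles. The values are not whole reads divided by a common factor, so no count test was run, and read depth per library is unknown. Genes with a mean signal of at least 10 were kept per tissue (15180 in liver, 17394 in fat). The log2(signal + 1) values were fitted with limma 3.58.1 in R 4.3.3 (trended empirical Bayes), 1 model per tissue over the 4 groups, with library preparation as a covariate in liver. Log2 differences are on that scale, which understates changes of low genes. P-values were adjusted by Benjamini-Hochberg over all genes tested and called under 0.05. The procedure was tested on simulated data. 

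The 37 members, the role groups and the lists of other pathway genes and markers were chosen with earlier results of these data known. All members were accounted for. Values by library are given for members called in a tissue and, in comparisons with fewer than 3 called, the 3 members with the smallest p, and some others were named after their values were seen. From the other lists, up to 6 called genes per comparison were named, or the 2 with the smallest p, of which 1 is not reported here. Libraries with the same replicate number were checked for shared deviations from their group means. In liver 3 of 18 such pairs correlated above 0.1 (median -0.079, against 0.018 for pairs with different numbers). In fat 9 of 15 did (median 0.15, against -0.089, with 4 of 30 above 0.1). Since not every pair did and the labels name no shared litter or batch, the numbers were not used as pairs. Whether libraries of the same number share a batch, in fat above all, was not tested. Alternatives were a pseudocount of 10, no filter, equal total signal, quantile normalization, a replicate block, no preparation covariate, and each library left out. Gene names came from the files and chromosome order and promoters from RefSeq (GRCm38.p6), whose coordinates are not those of mm9.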

Additional observations from a re-analysis of the deposited data

How the results depend on the processing

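The 7 members called between the sexes in liver numbered 3 with the replicate block, which kept Acot3, Acot4 and Acadm, and 3 to 9 with each library left out. They numbered 5 with no filter on low values and 7 with a pseudocount of 10, with libraries scaled to equal total signal, with quantile normalization and without the preparation covariate. In fat, the count between the sexes was 0 to 1 with each library left out, the 1 being Acaa2 without WT female replicate 4. The counts of called members in the other comparisons stayed at 0 under every alternative run, the replicate block included. Among the members that the naming rule selected, none changed sign in its selected comparison. The liver median over both sexes (0.063) did, lying between -0.030 and 0.10 with each library left out. In fat so did the median between the sexes, at -0.081 to 0.079, and that of the interaction, at -0.027 to 0.22. Within a preparation, uncalled values also changed sign, including genotype differences away from 0. In ribodepleted and then polyA-selected livers, Decr2 in males was at 0.95 and -0.66, and Ppargc1a in females at 0.49 and -0.95. Over both sexes Pdk4 was at -0.62 and 0.86. Between the sexes, smaller values did so. In ribodepleted livers alone the difference between the sexes was -0.12 for Acaa2, 0.28 for Ppara and 0.026 for Fgf21, and in polyA-selected livers alone it was -0.047 for Creb3l3 and -0.078 for Cyp4a31. The labels give libraries of the same replicate number nothing in common but the number. Whether they share more was not tested, so the calls lost with the block depend on that choice of model. A signal without read counts limits what can be said of the low adipose values of Fabp1, the Cyp4a members and Acot3.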
